A study of Mus musculus with 6 samples.

Results

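The X-linked gene Clcn5 carries a group of microRNA (miRNA) hairpins in its introns, and 7 mature mouse (mmu) miRNAs were taken to represent it: mmu-miR-188-5p, mmu-miR-362-3p, mmu-miR-362-5p, mmu-miR-532-5p, mmu-miR-532-3p, mmu-miR-501-3p and mmu-miR-660-5p. Their array entries were found by exact name, and the group itself was picked with earlier results of these data known. Of the 7, 6 had probes among the 1247 mouse miRNAs of the array. miR-660-5p had no entry of that name and was not analysed here. Levels were measured in kidney of male C57BL/6 mice, a standard inbred strain, at 2 months of age (young, 3 arrays) and at 20 months (aged, 3 arrays). The labels name no allele, diet or treatment in either group. Each array held 1 labelled replicate of total RNA. Nothing in the labels says that replicates came from different animals, and the p-values then measure only how these samples spread, which may be technical. The tissue is a mixture of cell types, and fewer cells of a type cannot be told apart from less of a miRNA per cell.

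Clcn5 encodes a chloride/proton exchanger of endosomes in the proximal tubule, the segment that takes up filtered protein, and its loss causes Dent disease in humans. A miRNA hairpin is cut into a duplex whose arms are called 5p and 3p, and often one arm is kept while the other is degraded. The kept strand guides repression of mRNAs that pair with its seed, bases 2 to 8 from its 5′ end. Hairpins of one transcript are made together, but cutting, arm choice and decay can set the mature forms apart.

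In RefSeq on GRCm38.p6, a later build than the mm9 of the array design, 5 hairpins of the group were looked up. That of miR-660-5p was not among them. All 5 lay inside the span of Clcn5 and on its strand, the minus strand. In the direction of transcription they were Mir532 (chrX:7248402-7248497), Mir188 (chrX:7247989-7248056), Mir362 (chrX:7241982-7242046), Mir501 (chrX:7241243-7241351) and Mir500 (chrX:7237683-7237774), within 10815 bases. Mir532 and Mir188 were 345 bases apart and Mir362 and Mir501 were 630 bases apart, with a gap of 5942 bases between these pairs. RefSeq held mature sequences for 5 of the 7 miRNAs and for 4 other arms of the same hairpins. The following lines show those the results turn on, in lower case with the seed in capitals, to let their seeds and their near-identical members be compared.
miR-188-5p: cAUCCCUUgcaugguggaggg
miR-362-5p: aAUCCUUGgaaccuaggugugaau
miR-500-5p: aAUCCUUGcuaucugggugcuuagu
miR-362-3p: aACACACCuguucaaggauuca
miR-501-3p: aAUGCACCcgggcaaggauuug
miR-500-3p: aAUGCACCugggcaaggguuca
miR-532-3p: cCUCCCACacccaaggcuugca
The 5 sequences of the group held 5 different seeds. Outside it, each of 3 of these seeds had 1 other bearer among the 1017 array miRNAs with a RefSeq sequence: miR-500-5p shares the seed of miR-362-5p, miR-500-3p that of miR-501-3p, and miR-329-3p, encoded on chromosome 12, that of miR-362-3p. miR-501-3p and miR-500-3p matched at 18 of 22 bases and differed by C9U, A18G, U21C and G22A, counted from the 5′ end of miR-501-3p.

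Detection by a call on spots split the hairpins by arm. miR-188-5p, miR-362-3p and miR-532-5p were well above background on all 6 arrays, as was miR-500-3p, the 3p arm of the neighbouring hairpin Mir500, which the list of 7 leaves out. The call needed the scanner software's mark on more than 50% of the spots of at least 1 probe. Of the other arms, miR-188-3p, miR-500-5p and miR-501-5p were well above background on 0 of 6 arrays. By this call on spots, the arms of Mir188, Mir362, Mir500 and Mir532 differed in how many arrays detected them. The scanner software also sets a more lenient flag per miRNA. By that flag both arms of Mir362 were detected on 6 arrays, and those of Mir532 on 6 (5p) and 5 (3p). The hairpins Mir188 and Mir362, with both mature arms in capitals and the 5p arm first, are shown as an example of each order.
Mir188: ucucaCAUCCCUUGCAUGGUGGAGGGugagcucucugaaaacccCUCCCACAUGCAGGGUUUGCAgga
Mir362: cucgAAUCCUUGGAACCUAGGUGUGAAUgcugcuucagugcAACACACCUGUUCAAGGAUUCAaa
By the call on spots, the arm detected on all arrays was the 5p arm from Mir188 and the 3p arm from Mir362.

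**Figure D1:**
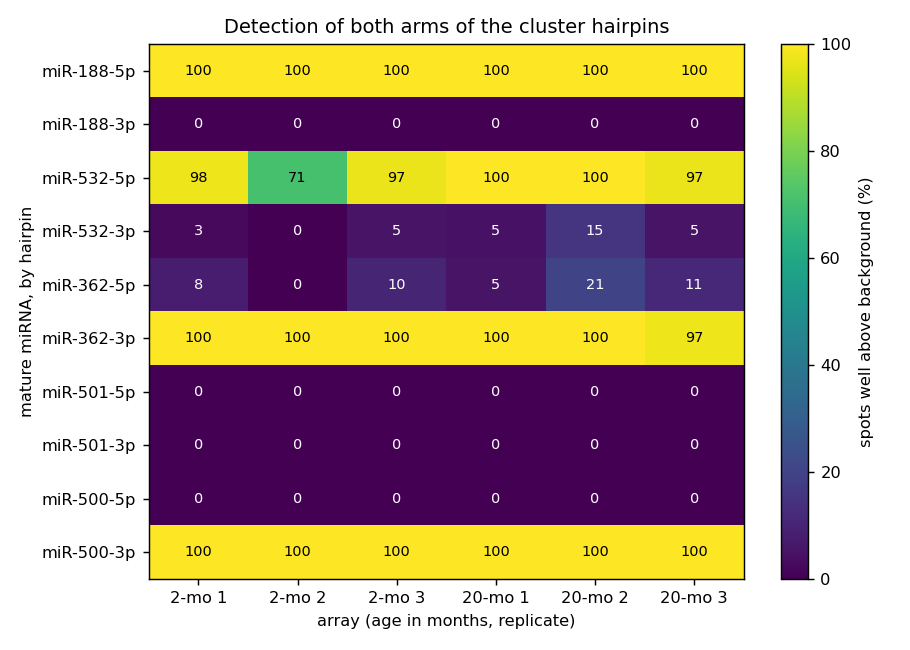
Share of spots marked well above background (percent, colour and number) for 10 mature miRNAs of 5 hairpins (rows) on the 6 arrays (columns). Only miR-188-5p, miR-532-5p, miR-362-3p and miR-500-3p are marked on most spots of every array, with a low of 71.1% for miR-532-5p on young array 2.

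The array carried 4 probes for miR-501-3p and none was well above background. Its brightest probe read between -0.24 and 5.33 intensity units after background subtraction, against a lowest signal of 30.3 to 38.6 units for any probe well above background on an array. The probes of miR-500-3p, which has the same seed and 18 matching bases, summed to 219 to 376 units on the same arrays. The signal listed under miR-500-3p was thus not seen on the probes for miR-501-3p. miR-329-3p, the seed relative of miR-362-3p, was not among the tested miRNAs.

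miR-362-5p, which has been reported to repress the deubiquitinase CYLD, and miR-532-3p lay at the edge of detection. By the call on spots, miR-362-5p was well above background on aged array 2 alone, while the software's flag per miRNA marked it as detected on 6 of 6 arrays. Its brightest probe read 32.9, 25.4 and 32.2 units on the young arrays, against 23.2, 43.6 and 37.4 units at 20 months. The ages overlapped, and the highest reading came from aged array 2, the brightest array as a whole: its 75th percentile of detected probes was 2054 units, against 1171 to 1415 on the other 5. After scaling to that percentile the log2 level of miR-362-5p was -4.85 ± 0.22 in young and -4.76 ± 0.22 in aged kidney (SD, n = 3 each). miR-532-3p was likewise well above background on aged array 2 alone, while the flag per miRNA marked it as detected on 5 of 6 arrays, all but young array 2. Its brightest probe read 29.1, 22.2 and 30.3 units on the young arrays, against 25.5, 39.9 and 33.7 units at 20 months. Its scaled level lay at the common floor of -5.22 (log2) on all 6 arrays. Both were below the filter for the test of age, as was miR-501-3p.

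For all detected forms the level below is log2 of the summed intensity of a miRNA's probes over the array's 75th percentile, taken over the 315 probes that were detected throughout. A level is not comparable between miRNAs, because each probe has its own brightness. At 20 months miR-188-5p and miR-362-3p had lower scaled levels than at 2 months on every array, without passing the test across miRNAs. The readings of miR-532-5p and of the neighbour miR-500-3p overlapped between the ages.

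miR-188-5p, reported elsewhere to steer bone marrow stromal cells between bone and fat with age, was the form with the lowest aged readings relative to youth. Its log2 level was -1.77, -1.30 and -1.73 on young arrays 1 to 3 and -1.85, -2.72 and -2.03 on aged arrays 1 to 3. The ages did not overlap, but aged array 1 stood only 0.25 below the young mean and aged array 2 stood 1.12 below it. The means were -1.60 ± 0.26 in young and -2.20 ± 0.46 in aged kidney (SD, n = 3 each), a difference of -0.60 ± 0.25 (aged minus young, log2, SE), or 1.51-fold less with age. The limma adjusted p over the 193 tested miRNAs was 0.186 (unadjusted 0.0522), so miR-188-5p did not pass the threshold of 0.05. Its 95% interval ran from -1.21 to 0.01.

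The 4 probes of miR-188-5p gave alike differences, from -0.65 to -0.55, and on each of them the ages did not overlap. The single spots of a probe on one array varied by 4.92% to 12.8% before scaling (coefficient of variation). The SDs between arrays, 0.26 and 0.46, are of log2 levels scaled and summed over probes, so these measures are not directly comparable. Before scaling, the summed intensity was 415, 490 and 359 units on the young arrays, against 325, 312 and 315 units at 20 months. The aged arrays were thus close to each other in raw signal, and the low value of aged array 2 appeared once its higher overall brightness was divided out. Without aged array 2 the difference was -0.34, and without any scaling -0.40.

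miR-362-3p had log2 levels of -2.88, -2.88 and -2.74 at 2 months, and of -2.97, -2.93 and -3.34 at 20 months. On this scale the ages again did not overlap, with aged arrays 1 and 2 just below the young ones and aged array 3 alone 0.51 below their mean. The means were -2.83 ± 0.08 and -3.08 ± 0.23 (SD, n = 3 each), and the difference was -0.25 ± 0.13 (SE), 1.19-fold less with age, with a 95% interval from -0.55 to 0.06. It did not pass (limma adjusted p = 0.27) and was -0.12 without aged array 3. Without any scaling it was -0.045, and it reversed to 0.17 when every probe entered the 75th percentile. Before scaling the ages overlapped: the summed intensity was 192, 163 and 178 units on the young arrays, against 150, 269 and 126 units at 20 months. Its 2 probes gave -0.25 and -0.24.

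miR-532-5p, reported to repress the transcription factor RUNX3, did not differ detectably between the ages. Its log2 levels were -3.48, -3.56 and -3.27 at 2 months, and -3.53, -3.41 and -3.19 at 20 months, with overlapping ranges. The means were -3.43 ± 0.15 and -3.37 ± 0.17 (SD, n = 3 each), the difference 0.06 ± 0.12 (SE) and the 95% interval -0.23 to 0.36, or 0.85-fold to 1.28-fold under this scaling (limma adjusted p = 0.797). Neither size nor sign was stable: the difference was 0.47 when every probe entered the 75th percentile, 0.28 with quantile normalization, 0.26 without scaling, 0.20 with the median, -0.092 with slide row as a block and -0.079 with normexp background correction. One of its 2 probes was well above background on 5 of 6 arrays, so this form sat closer to the detection limit than the others.

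miR-500-3p, the detected arm of Mir500, read -2.28, -2.39 and -2.25 (log2 level) at 2 months, and -2.42, -2.45 and -2.20 at 20 months. Its ranges overlapped as well. The difference was -0.05 ± 0.10 (SE, n = 3 per group, limma adjusted p = 0.794, 95% interval -0.28 to 0.18). Its sign turned positive under 4 other scalings (0.091 to 0.36) and in the authors' processed values (0.067).

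**Figure D2:**
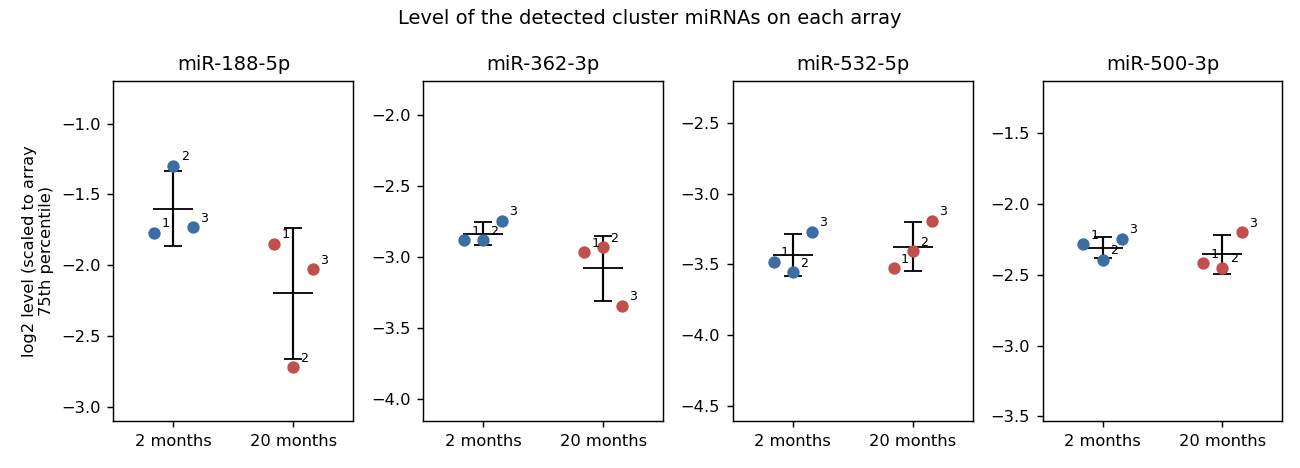
Level of the 4 detected miRNAs on each array (log2 of intensity over the array's 75th percentile), young in blue and aged in red, with replicate numbers; bars are mean ± SD of 3 arrays, and each panel spans 2.4 log2 units. The ages do not overlap for miR-188-5p and miR-362-3p and overlap for miR-532-5p and miR-500-3p.

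Among the 3 tested members of the group 0 passed the limma threshold in either direction, and 0 had an unadjusted p under 0.05. Over all 193 tested miRNAs 4.15% were called higher, 3.63% lower and 7.77% in either direction. An unadjusted limma p under 0.05 was found for 25.4% in either direction, and 15.5% were lower at that p. Aged values lay wholly below young ones for 2 of the 3, a pattern seen in 20.2% of all tested miRNAs, while the ages did not overlap in either direction for 30.6%. Differences were negative for the same 2 of the 3, beside 128 of the 193 (66.3%), so the share was near that of all miRNAs. The median difference was -0.25 for the 3 and -0.08 for all. By size, miR-188-5p ranked 18th from the most negative of the 193 differences, miR-362-3p 56th and miR-532-5p 145th. miR-188-5p was also among the less precise, since 10.4% of tested miRNAs had a larger SE.

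**Figure D3:**
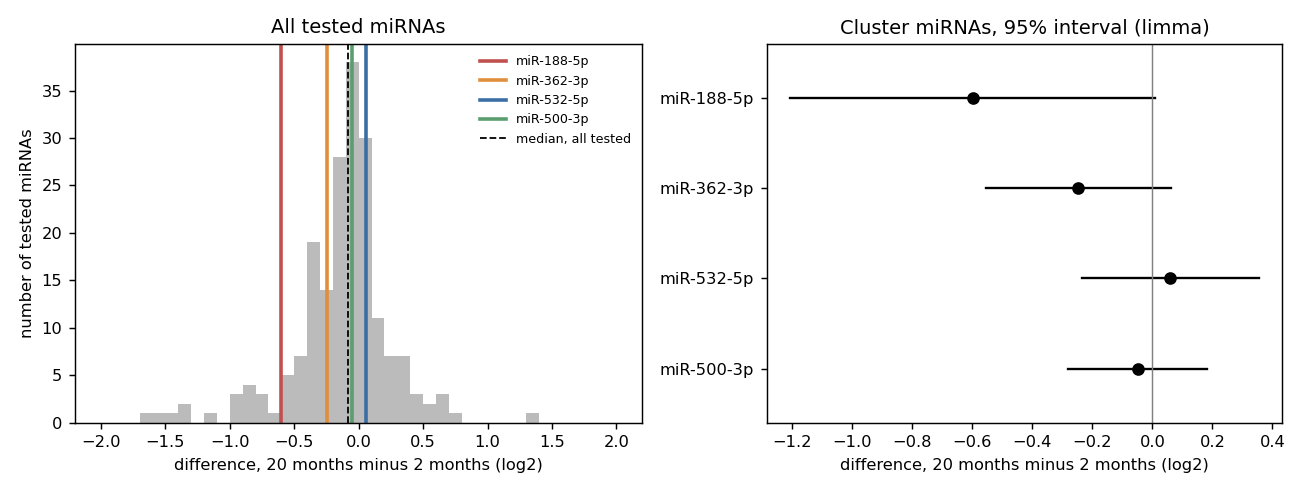
Left, number of tested miRNAs (of 193) by difference between ages (log2, aged minus young), with the 4 detected cluster miRNAs as coloured lines and the median of all as a dashed line at -0.08. Right, the same 4 differences with 95% intervals from limma; each interval includes 0, and that of miR-188-5p ends at 0.01.

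Members of one array share its scaling, which drops out of the difference between 2 of them on the same array, so this was computed after the data were seen. miR-188-5p less miR-532-5p was 1.71, 2.26 and 1.54 (log2) on the young arrays and 1.68, 0.69 and 1.16 on the aged arrays. The ages overlapped at a single array, aged array 1, and the mean shifted by -0.66 ± 0.36 (SE; exact two-sided permutation p = 0.2, where the smallest this design allows is 0.1). miR-188-5p less miR-362-3p shifted by -0.35 ± 0.38 (exact p = 0.6), and by -0.02 without aged array 2. miR-362-3p less miR-532-5p was 0.60, 0.68 and 0.52 on the young arrays and 0.56, 0.47 and -0.15 on the aged arrays, a shift of -0.31 ± 0.23 (exact p = 0.2) that was -0.08 without aged array 3. Adjusted over these 3 pairs (Benjamini-Hochberg), the exact permutation p were 0.3, 0.6 and 0.3, and an unequal change of the members was not shown.

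No pair of detected members had a correlation over the 6 arrays that passed its two-sided test. miR-188-5p was highest on young array 2 and lowest on aged array 2, whereas miR-362-3p was lowest on aged array 3, the array on which miR-532-5p was highest. Pearson's r was 0.25 between miR-188-5p and miR-362-3p (exact permutation p = 0.519; Spearman's rho 0.66, exact permutation p = 0.175). It was -0.32 between miR-188-5p and miR-532-5p (exact permutation p = 0.568; rho -0.49, p = 0.356) and -0.46 between miR-362-3p and miR-532-5p (exact permutation p = 0.394; rho -0.14, p = 0.803). Adjusted over the 3 pairs the exact permutation p was 0.568 for each r, and 0.525, 0.533 and 0.803 for rho. Without the 2 arrays farthest from the median of the first miRNA, r was 0.99, -0.45 and -0.17 over 4 arrays. With group means subtracted it was -0.40, -0.23 and -0.43. These values depended on the processing: with normexp background correction they were 0.88 (adjusted exact permutation p = 0.0208), 0.81 and 0.67. That setting added 50 units to every spot, while the probes of these members read 37.4 to 164 units in the main processing. The part of this offset in the correlations was not tested. The first r was negative under the 4 other scalings and in the authors' values.

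**Figure D4:**
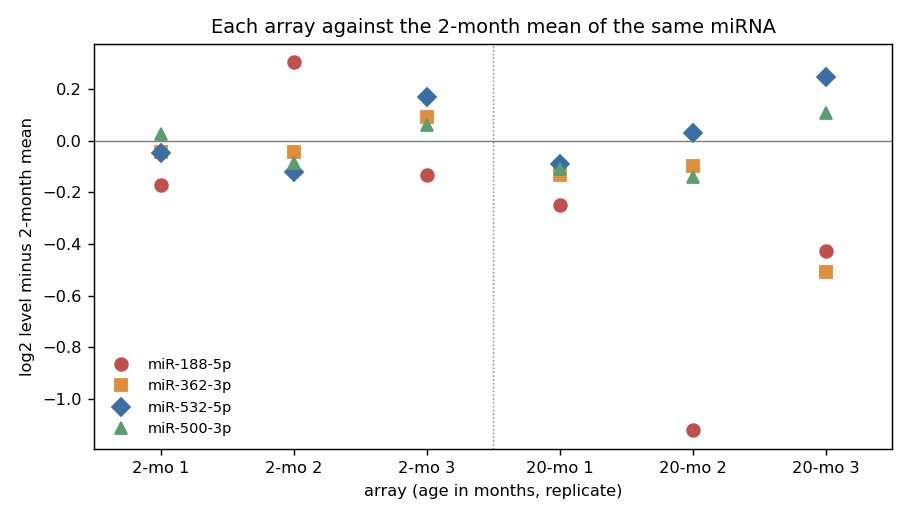
Each array's log2 level less the young mean of the same miRNA, for the 4 detected cluster miRNAs (symbols), young arrays left of the dotted line. Aged array 2 stands at -1.12 for miR-188-5p, -0.097 for miR-362-3p, -0.14 for miR-500-3p and 0.028 for miR-532-5p, and aged array 3 is low for miR-188-5p (-0.43) and miR-362-3p (-0.51) and high for miR-532-5p (0.25).

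The closest profiles belonged to miRNAs outside the group. Of the 192 other tested miRNAs, those most like miR-188-5p over the 6 arrays were miR-494-3p (Pearson's r = 0.98) and miR-6378 (0.96), and miR-362-3p ranked 89th. miR-6378 was faint, set to the floor of -5.22 on aged array 2 and between -4.99 and -4.73 elsewhere. miR-494-3p was low on aged array 2 (1.34) against 1.87 to 2.23 on the other 5. A low level on that array was not particular to these miRNAs. For example, miR-5109 read 2.40 there against 3.05 to 3.46 on the other 5, whereas let-7f-5p read 3.95 against 3.75 to 3.91. Those most like miR-532-5p were miR-324-5p (0.99) and miR-103-3p (0.99), with miR-500-3p 35th (0.75) and miR-362-3p 175th. Those most like miR-362-3p were miR-144-3p (0.94), an erythroid miRNA, and miR-30b-5p (0.90). miR-144-3p was lowest on aged array 3 (-2.52), as was miR-362-3p, against -1.25 to -1.14 on young arrays. All 3 erythroid miRNAs were well above background on all arrays, and their summed level was 3.07 to 3.23 (log2) in young and 2.67 to 2.84 in aged kidney. Their part in the values of miR-362-3p was not tested. Over all 18528 pairs of tested miRNAs the median r was 0.18, and 14.2% of pairs exceeded 0.75. All points of these correlations share the scaling of 6 arrays, and they are given as a description.

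The members also differed in base composition. G and C made up 61.9% of miR-188-5p, above 89.7% of the 155 tested miRNAs with a sequence, and 40.9% of miR-362-3p, above 19.4% of them. The median of those 155 was 45.5%. The undetected or faint forms ranged from 41.7% for miR-362-5p to 63.6% for miR-532-3p.

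All 6 arrays were on 1 slide, the 3 young arrays and aged array 1 in one row and aged arrays 2 and 3 in the other. Within the first row aged array 1 stood against the young mean at -0.25 for miR-188-5p, -0.13 for miR-362-3p, -0.092 for miR-532-5p and -0.11 for miR-500-3p. The mean of aged arrays 2 and 3 stood at -0.77, -0.30, 0.14 and -0.02 in the same order. With row as a block the differences equalled those of aged array 1, with SEs of 0.29, 0.18, 0.16 and 0.14 and limma adjusted p of 0.763 to 0.874. Row and age could thus be separated through a single aged array.

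Between 177 and 209 miRNAs were well above background on an array, and no spot was saturated. Of 10 kidney-enriched miRNAs 9 were well above background on all arrays. Of 7 miRNAs typical of liver, heart, muscle, islet or brain 5 were detected on no array, while miR-1a-3p was detected on 4 and miR-124-3p on the 3 aged ones. The summed level of 5 leukocyte miRNAs was -0.76 to -0.55 in young and -0.41 to -0.08 in aged kidney, and that of 4 stromal miRNAs 0.85 to 0.93 and 1.02 to 1.17. The stromal miRNAs were mixed in direction: the difference (aged minus young, log2) was 0.40 for miR-199a-3p and 0.30 for miR-214-3p, but -0.27 for miR-143-3p and -0.25 for miR-145a-5p. Their part in the members' values was not tested. The number of arrays limits the precision.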

How the data were processed

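Total RNA was labelled with Cy3 and hybridised to 1-colour Agilent miRNA arrays, per the labels' protocols. Spots were read with Feature Extraction 11.5.1.1, per the file headers. The deposited spot values are fluorescence intensity, background-subtracted by that software and not scaled between arrays, per the file headers. The authors also deposited a log2 table, which matched log2 of the total gene signal in the scanner files after subtracting a single constant from each array, over 1268 features. No source used here says what the constant stands for. Its array medians were -9.74, -9.21 and -9.21 (young) and -9.49, -10.10 and -9.20 (aged).

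Intensity was averaged over a probe's spots without outliers, scaled to the 75th percentile of the detected probes and summed per miRNA. Sums under the floor of -5.22 (log2) were set to it, the median over arrays of the lowest detected signal. Detection on all 3 arrays of at least 1 age was required, and the miRNAs that met it were fitted with limma 3.58.1 in R 4.3.3 (lmFit, eBayes) on age alone, p-values being adjusted by Benjamini-Hochberg over all 193; the code was tested on simulated data. Files were read with jsonlite 2.0.0 and the R package data.table, version 1.17.8. Between arrays of a group, 58.4% to 81% of probes differed by more than the noise between spots, and arrays were counted as separate. Spot noise within an array cannot tell technical from biological replicates. The normexp alternative used median signals and an offset of 50 units. Of the array's miRNAs 1017 matched a RefSeq mature sequence by name.

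The members, the lists and the tests were chosen with earlier results of these data known. The miRNAs named were the members, the other arms of their hairpins, array miRNAs of the same seed, for each tested member the 2 tested miRNAs outside the group with the highest r, and marker lists of kidney, other organs, blood, endothelium and stroma. miR-5109 and let-7f-5p were named afterwards, as examples of levels on aged array 2. Of 2 endothelial markers miR-126-3p was on all arrays (summed level 2.64 to 2.78 young, 2.73 to 2.86 aged). Alternatives changed the scaling, background correction, filter, outlier spots, floor, probe summary, variance model, blocks and arrays.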

Additional observations from a re-analysis of the deposited data

How the results depend on the processing

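No alternative brought a tested member past the threshold in either direction (limma adjusted p no lower than 0.0587, that of miR-188-5p without aged array 1). The difference of miR-188-5p was negative in all 20 alternatives, from -0.77 to -0.19 (-0.77 to -0.34 leaving out 1 array each). miR-362-3p was negative in 19 of 20 (-0.32 to -0.12 leaving out 1 array) and 0.17 with the 75th percentile over all probes. Changes of filter, floor or variance model and the replicate block could not move either estimate. Their entries in these counts therefore say nothing about the sign. miR-532-5p was 0.47 when every probe entered the 75th percentile, 0.28 with quantile normalization, 0.26 without scaling, 0.20 with the median, -0.079 with normexp, -0.092 with slide row as a block, and -0.032 to 0.14 leaving out 1 array. miR-500-3p reached 0.36 when every probe entered the 75th percentile, 0.091 with the median, 0.10 with quantile normalization, 0.15 without scaling and 0.067 in the authors' values. Scaling moved the middle of the 193 differences from -0.08 to 0.33 (75th percentile of every probe), 0.12 (no scaling), 0.06 (median) and 0.03 (the authors' values), so these signs are relative to the scaling.

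The correlation of miR-188-5p with miR-362-3p was -0.15, -0.18, -0.36, -0.046 and -0.17 with the 75th percentile over all probes, the median, quantile normalization, no scaling and the authors' values, and 0.88 with normexp. That of miR-188-5p with miR-532-5p was 0.81 with normexp, and that of miR-362-3p with miR-532-5p was 0.70, 0.65 and 0.67 with the percentile of every probe, no scaling and normexp. The within-array differences between members kept their sign in all 12 alternatives, but these are not separate evidence. The lower floor and the authors' values could not change them, and those leaving out 1 array reuse the same readings. That of miR-188-5p and miR-362-3p ranged from -0.57 to -0.017.

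Of all tested miRNAs 8 were higher and 7 lower. These counts were 18 and 3 with the median, 13 and 1 with quantile normalization, 1 and 1 without scaling, 4 and 0 with normexp (27 at an unadjusted p under 0.05 by limma), 4 and 2 without a filter, and 2 and 3 with slide row as a block; lower ones were 0 in the authors' values (39 at an unadjusted p under 0.05 by limma). Leaving out 1 array gave 3 to 12 higher and 2 to 27 lower, the latter without aged array 1.

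Replicate numbers are shared between the ages. Deviations of same-numbered arrays correlated at 0.12, -0.58 and 0.31, and 1 of 6 arrays correlated best with its own number. No pairing by number was seen, but deviations from the mean of 3 arrays cannot show that the samples were unpaired. With the replicate block 2 miRNAs were higher and 1 lower, and 0 members were called (limma adjusted p 0.307 for miR-188-5p, 0.349 for miR-362-3p and 0.661 for miR-532-5p). Signal over background limits what can be said of miR-362-5p, miR-532-3p and miR-501-3p.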
